A study of Mus musculus with 2 samples.

Results

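Trbc2, which encodes the second constant region of the T cell receptor beta chain, was examined as 1 of 19070 genes counted in sections of injured mouse brain. It was selected because earlier work on these sections found it lower in the lesion than in mirror tissue, so its levels in those areas are given as a description. The study exposed the right parietal cortex of male C57Bl6 mice (C57BL/6 J in the study's methods) aged 3 months to a piston blow (controlled cortical impact, CCI, used to model brain trauma) and measured spatial expression in 1 coronal section taken 3 days and 1 taken 28 days later. Before the impact the mice were anaesthetised, given pain relief and had a bone flap removed, and the study's methods name no further treatment. No section of a sham-operated animal was analysed here. Brains were perfusion-fixed, embedded in paraffin and cut at 10 µm, and pairs of gene probes were counted on a grid of barcoded squares (Visium HD) as unique molecular identifiers (UMIs) per bin of 16 µm. A bin can hold parts of several cells. Each time point is a single animal, so no difference was tested, and every interval is a 95% interval of counting error that leaves out how animals vary.

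In T cells, the alpha and beta chains of the receptor recognise antigen, and the CD3 proteins encoded by Cd3e, Cd3d and Cd3g carry the signal into the cell. The beta locus holds a pair of constant genes, Trbc1 and Trbc2, and a rearranged variable segment is spliced to either of them. Transcripts of the beta constant region have also been described in neurons of the central nervous system.

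The genes lie next to each other on the plus strand of mouse chromosome 6, Trbc1 at chr6:41538218-41539881 and Trbc2 at chr6:41546730-41548352 (mm10, the build named in the labels), with 6848 bases between them and 4 exons each. The sequences are shown because they decide how far a Trbc2 UMI can be told from a Trbc1 UMI. Exon 1, which codes for most of the constant domain, has 375 bases in each gene and differs at 1 base, A260C counted from the first base of the exon (Trbc2 base first), so that 99.7% of its bases are identical. The window around that base is printed from 5′ to 3′, with the differing base in capitals.
Trbc2 exon 1, chr6:41546959-41547018: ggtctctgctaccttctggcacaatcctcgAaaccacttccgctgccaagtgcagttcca
Trbc1 exon 1, chr6:41538447-41538506: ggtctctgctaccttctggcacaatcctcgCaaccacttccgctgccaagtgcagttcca
Exon 3 has 107 bases in each gene, of which 15 differ (86.0% identical), and its differing bases are also in capitals.
Trbc2 exon 3, chr6:41547772-41547878: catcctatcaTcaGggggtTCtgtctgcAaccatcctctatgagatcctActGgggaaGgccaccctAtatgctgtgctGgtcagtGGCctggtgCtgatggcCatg
Trbc1 exon 3, chr6:41539229-41539335: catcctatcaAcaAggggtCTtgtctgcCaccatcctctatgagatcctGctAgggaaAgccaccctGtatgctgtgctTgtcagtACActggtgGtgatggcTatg
Where the probes of either gene lie is not given in the sources used here. A probe in exon 1 could bind both transcripts and a probe in exon 3 could separate them, so assignment between Trbc2 and Trbc1 is uncertain.

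With at least 100 UMIs required per bin, 119617 bins of the 3 days section (median 851 UMIs) and 103316 bins of the 28 days section (median 610 UMIs) were kept. The array cut the tissue differently, with 2.08 mm of the injured side and 4.62 mm of the opposite side captured at 3 days against 3.84 and 2.86 mm at 28 days. The regions present on the sides therefore differed in each section. The sides were set by array column, since the sample labels do not give them. The phagocyte genes Cd68, Lyz2, Ctsz, Lgals3, Cd52 and Laptm5 were all at least 2-fold higher on the side taken as injured in both sections. These genes also placed the lesion zone and are not results.

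Trbc2 was sparse. There were 682 UMIs in 658 bins at 3 days (5.66 CPM, the UMIs scaled to a common total of counts per area, 5.24 to 6.10) and 575 UMIs in 547 bins at 28 days (6.99 CPM, 6.43 to 7.58). Most of these bins held 1 UMI, with 20 bins at 3 days and 26 at 28 days holding 2 or more. Bins with Trbc2 were deeper than the others, with medians of 1169 and 849 UMIs in the 3 days section and 1250 and 607 UMIs in the 28 days section, so shares of bins are also given after each bin was thinned to 300 UMIs.

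**Figure D1:**
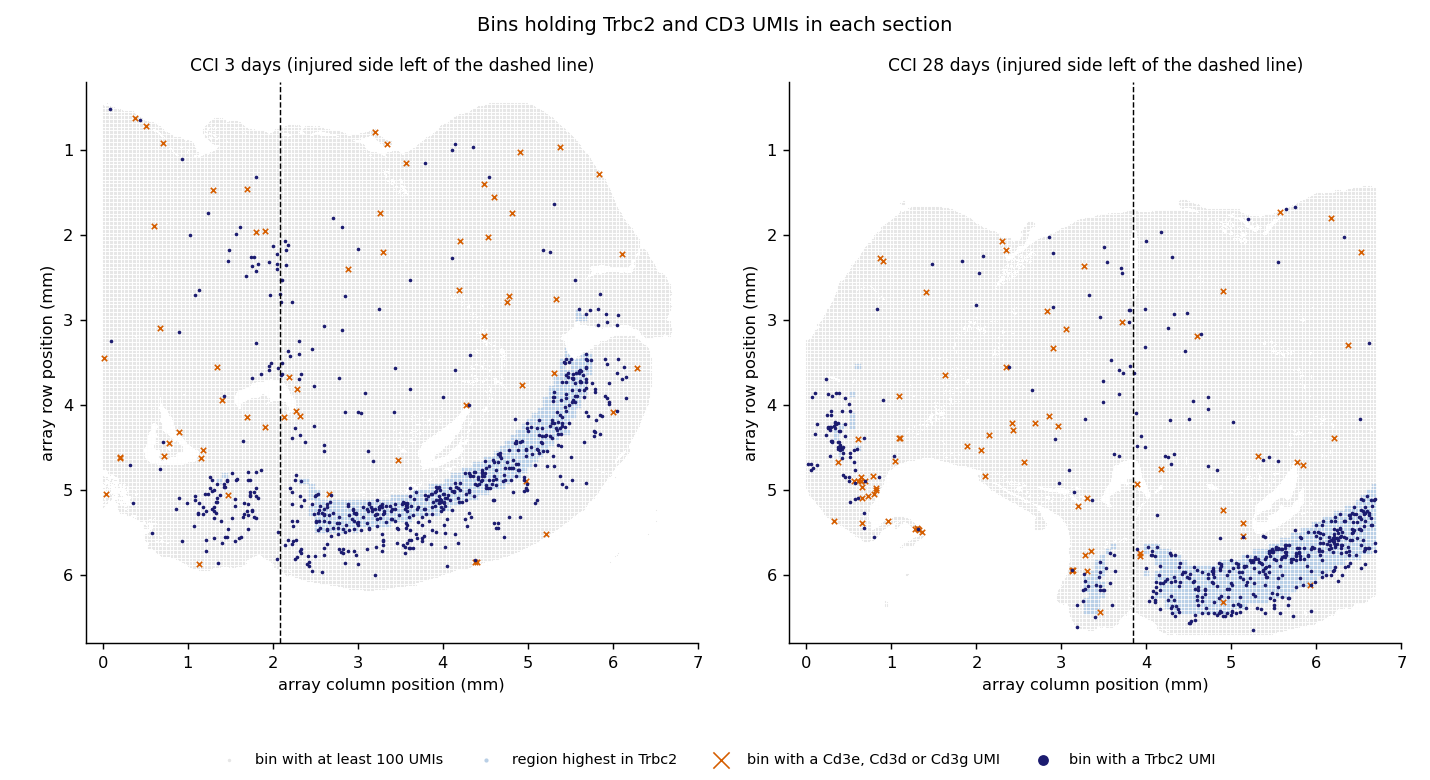
Position on the array (mm) of bins with a Trbc2 UMI (blue points) and of bins with a Cd3e, Cd3d or Cd3g UMI (orange crosses) in the 3 days (left) and 28 days (right) sections. The cortex is at the bottom and the injured side is left of the dashed line. Trbc2 bins crowd a band of cortex on the opposite side, shaded light blue, which held 46.6% of the Trbc2 UMIs at 3 days and 60.1% at 28 days.

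Trbc2 was lower on the injured side of both sections. At 3 days the injured side held 120 UMIs (3.19 CPM, 2.65 to 3.82) and the opposite side 562 (6.78 CPM, 6.23 to 7.36), a log2 ratio of -1.08 (-1.38 to -0.80). At 28 days the injured side held 142 UMIs (3.83 CPM, 3.22 to 4.51) and the opposite side 433 (9.59 CPM, 8.70 to 10.5), a log2 ratio of -1.32 (-1.61 to -1.05). The intervals of the sides did not overlap in either section. The side ratio contains the lesion and is thus not independent of how the gene was chosen. Of all genes with enough UMIs to compare, 2.12% were at least 2-fold lower on the injured side at 3 days (342 of 16164) and 0.582% at 28 days (91 of 15640).

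Tissue makeup moved with the side. The region highest in Trbc2, described further on, covered 0.0818% of the bins of the injured side and 7.26% of those of the opposite side at 3 days, and 1.36% against 12.3% at 28 days. Scaled to the UMIs of 6 pan-neuronal genes instead of all UMIs, the log2 ratio was smaller, -0.54 (-0.84 to -0.26) at 3 days and -0.86 (-1.15 to -0.59) at 28 days. How much of the side ratio came from the captured regions was not tested. Fewer neurons and less Trbc2 RNA per neuron cannot be told apart in bins of this size.

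In the lesion zone itself, whose values led to the choice of the gene, Trbc2 had 12 UMIs at 3 days (2.32 CPM, 1.20 to 4.05) against 141 in the mirror zone (17.7 CPM, 14.9 to 20.9). At 28 days it had 26 UMIs (3.63 CPM, 2.37 to 5.32) against 69 (8.64 CPM, 6.72 to 10.9). The log2 ratios were -2.88 (-3.92 to -2.08) and -1.23 (-1.96 to -0.58). They stood in contrasts where 8.57% (1163 of 13570) and 8.16% (1111 of 13619) of genes were at least 2-fold lower. The mirror zone overlapped the region highest in Trbc2 by 16.4% of its bins at 3 days and 9.58% at 28 days, whereas the lesion zone did so by 0% and 0.472%. All 6 pan-neuronal genes were at least 2-fold lower in the lesion zone in both sections, with a median log2 ratio of -1.51 at 3 days and -1.34 at 28 days, where the median over all genes compared was 0.14 and 0.00. Per pan-neuronal UMI the log2 ratio of Trbc2 was -0.99 (-2.03 to -0.19) at 3 days but 0.20 (-0.53 to 0.85) at 28 days, where the interval spans 0 and shows no direction. With the side border moved by 10 bins toward the opposite side, the ratio per all UMIs at 28 days was -0.72 (-1.49 to 0.01), an interval that reaches 0. At 3 days a lower threshold for the zone (the 95th percentile of the phagocyte score in place of the 99th) gave -1.90 (-2.46 to -1.40), and the whole opposite side as the reference gave -1.49 (-2.51 to -0.73). The zones were not matched in structure. At 28 days the part of the lesion zone more than 2.86 mm from the border had no mirror tissue on the array. The 6 striatal genes were all at least 2-fold higher in the lesion zone at 3 days (median 2.93) and all lower at 28 days (-1.83). In these contrasts 17.5% of all genes at 3 days and 16.5% at 28 days were at least 2-fold higher.

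To ask where Trbc2 lay irrespective of side, tiles of 64 µm were clustered in each section with Trbc2 and all T cell genes left out, and each region was called by its leading genes. These genes formed the clusters and are not results. At 3 days, 1 of 23 regions stood apart. The Krt80 region (leading genes Krt80, Nr4a2, Col24a1, Ighm and Col5a1) held 318 Trbc2 UMIs on 4.92% of the bins, or 54.8 CPM (49.0 to 61.2) against 3.17 CPM (2.86 to 3.52) in the rest of the section, a log2 ratio of 4.11 (3.89 to 4.33). All 4 genes of the cortical layer 6 list, Foxp2, Syt6, Rprm and Tle4, and both measured claustrum genes were at least 2-fold higher there than elsewhere, where 4.05% of all genes were (654 of 16163). These markers were not left out of the clustering, so their count describes the region and tests nothing.

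At 28 days the highest of 19 regions was again led by Krt80, followed by Myl4, Fezf2, Ighm and Hs3st2. It held 345 Trbc2 UMIs on 7.07% of the bins, or 39.8 CPM (35.7 to 44.2) against 3.12 CPM (2.73 to 3.55) in the rest, a log2 ratio of 3.67 (3.43 to 3.92). Its extent depended on how finely tiles were clustered, with 439 UMIs and 23.0 CPM in the highest region at a Leiden resolution of 0.5 and 251 UMIs and 60.1 CPM at 2. This region was broader than that of the 3 days section. The layer 5 genes Fezf2 and Etv1 and the layer 6 genes Rprm and Tle4 were at least 2-fold higher in it (1.87% of all genes were), while the claustrum genes Nr4a2 and Gnb4 were not, so the regions share their leading gene and their Trbc2 but not all markers. When tiles were instead assigned to the fixed marker lists, the tiles of the layer 6 list were the highest in Trbc2 in both sections, at 49.0 CPM at 3 days and 46.9 CPM at 28 days.

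Other cortex was lower. Over both sides, the region led by Ovol2 and Adam33 had 13.8 CPM (11.7 to 16.1, 159 UMIs) at 3 days and 7.68 CPM (5.97 to 9.71, 69 UMIs) at 28 days. The tissue differed, since that region fitted the layer 4 list best at 3 days and the layer 2/3 list best at 28 days, by the highest median fold of any list. Upper cortex led by Vip, Ntn5 and Lamp5 at 3 days had 1.70 CPM (0.880 to 2.97). Away from the cortex, the Gbx2 region, which fitted the midline thalamus list best, had 4.09 CPM (2.97 to 5.49, 44 UMIs) at 3 days and 4.23 CPM (2.71 to 6.29, 24 UMIs) at 28 days. The remaining areas were low. Of the 23 regions at 3 days, 20 lay under 5 CPM with 1 at 0, and of the 19 at 28 days, 15 lay under 5 CPM with 2 at 0. The striatal regions led by Adora2a had 0.229 CPM (0.00580 to 1.28) at 3 days and 0.761 CPM (0.207 to 1.95) at 28 days.

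**Figure D2:**
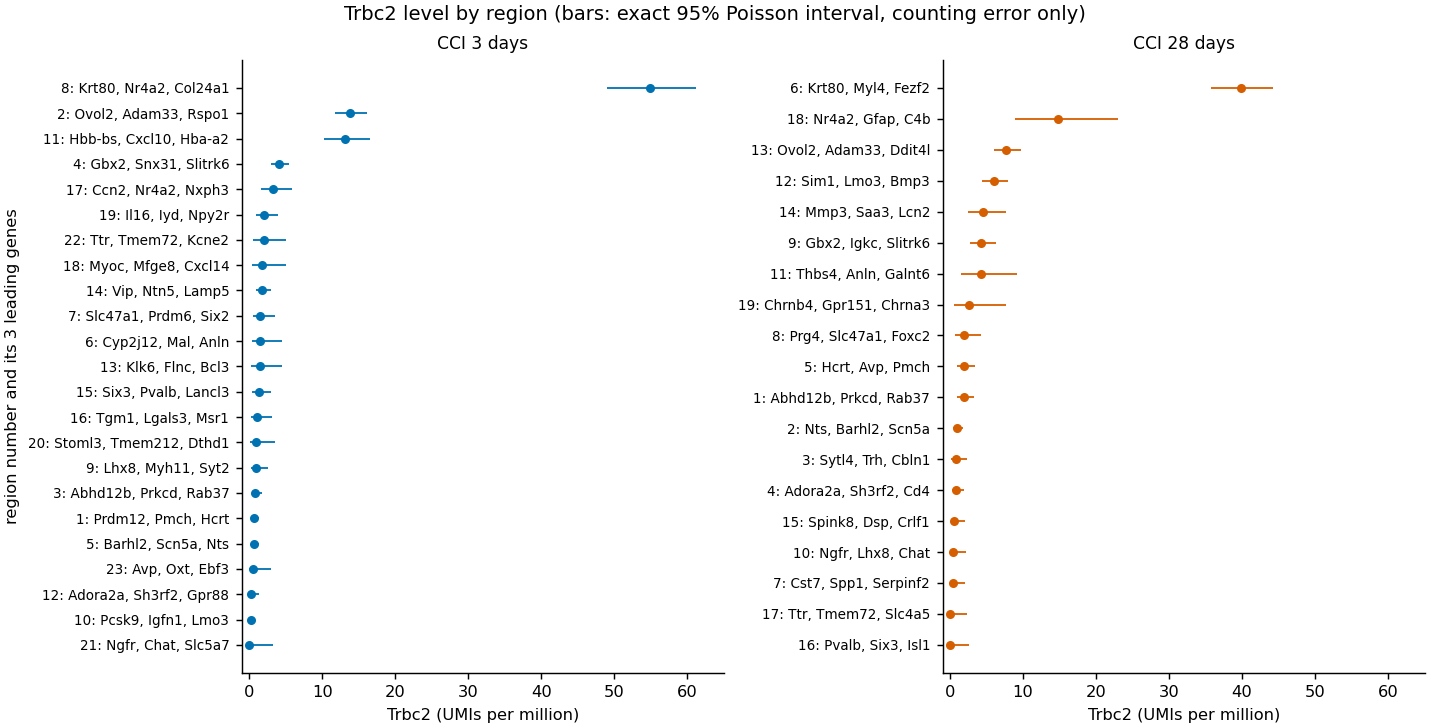
Trbc2 level (CPM) in each region of the 3 days (left) and 28 days (right) sections, named by region number and 3 leading genes. Bars are exact 95% Poisson intervals and cover counting error only. The region led by Krt80 lies above all others in both sections, at 54.8 and 39.8 CPM.

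The order of the levels was clear for the highest regions. At 3 days the interval of the Krt80 region lay above that of the Ovol2 region, whose own interval overlapped that of the Hbb-bs and Cxcl10 region (13.1 CPM, 10.3 to 16.5). Both of these lay above the Gbx2 region and all lower ones. At 28 days the interval of the Krt80 region lay above that of the region led by Nr4a2, Gfap and C4b (14.7 CPM, 8.87 to 23.0). The latter overlapped the Ovol2 region.

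The regions that held most Trbc2 UMIs differed between the sides, and some were shared. At 3 days, 72 of the 120 UMIs of the injured side lay in the region led by Hbb-bs, Cxcl10, Hba-a2, Arg1 and Hmox1, genes of red cells, chemokine signalling, arginine breakdown and heme breakdown. That region was 99.1% on the injured side, and 43.8% of its bins were in the lesion zone. The whole lesion zone held 12 Trbc2 UMIs at 3 days, so most of the 72 lay outside it. The neuronal gene Rbfox3 had 297 CPM in that region and 342 CPM in the Krt80 region. The region led by Tgm1, Lgals3 and Msr1, genes of reactive phagocytes among them, lay to 83.5% in the lesion zone and had 3 UMIs (1.05 CPM, 0.216 to 3.06). The Gbx2 region gave 19 UMIs on the injured and 25 on the opposite side.

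At 28 days the injured side's UMIs were spread over more regions. The region led by Sim1, Lmo3 and Bmp3, which was 89.1% on the injured side and fitted the claustrum list best, held 48 (33.8%). The Nr4a2, Gfap and C4b region held 19 (13.4%), the Gbx2 region 14 (9.86%), the Krt80 and the Ovol2 region 13 each (9.15%) and the Mmp3 region 11 (7.75%). The Nr4a2, Gfap and C4b region had the second highest level of that section (14.7 CPM). Of its bins 97.4% lay on the injured side and 48.2% in the lesion zone. On the opposite side the Gbx2 region held 10, the Krt80 region 332 and the Ovol2 region 56. Within the Krt80 region, the strip on the injured side had 17.6 CPM (9.35 to 30.03) and the opposite side 41.9 CPM (37.5 to 46.7). Only 0.877% of the bins of that region lay in the lesion zone. The region led by Cst7, Spp1 and Itgax, also genes of reactive phagocytes, had 97.5% of its bins in the lesion zone and held 1 Trbc2 UMI (0.369 CPM, 0.00934 to 2.06). The region led by Mmp3, Saa3 and Lcn2, of which 61.6% lay in the lesion zone, held 13 (4.51 CPM, 2.40 to 7.71), the fifth highest level of the 19 regions.

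Within the cortex, Trbc2 was graded by depth. The distance of each cortical bin of the opposite side from the white matter region was binned in bands of 100 µm. Cortical bins were those of the Krt80, Ovol2 and Vip regions at 3 days and of the Krt80 and Ovol2 regions at 28 days. A region led by Ccn2, Nr4a2 and Nxph3 at 3 days was not among them and had 3.28 CPM (1.64 to 5.87). That region fitted the layer 6b list best, with the claustrum list close behind. Every region whose best list was a cortical layer or the claustrum was also taken in, a choice made after the data were seen. The band next to the white matter then had 67.6 CPM at 3 days and the same 65.1 CPM at 28 days. Its bins hardly changed (1318 in place of 1309 at 3 days, 1298 in both at 28 days). These values thus cannot show whether the level depends on the regions chosen. At 3 days Trbc2 had 68.1 CPM (51.7 to 88.1) next to the white matter, then 65.5, 47.6, 31.4, 22.1 and 16.6 CPM in the following bands, and 5.89 CPM (3.04 to 10.3) between 900 and 1000 µm. The level was lower in each following band up to 1000 µm, although the intervals of neighbouring bands overlapped. At 28 days Trbc2 had 65.1 CPM (50.7 to 82.4) next to the white matter, then 61.3, 53.0, 29.7 and 15.7 CPM, a higher value of 27.3 CPM (20.04 to 36.3) between 500 and 600 µm, and 2.58 CPM (0.532 to 7.55) in the outermost band. The interval of that band overlapped that of the band before it (10.3 to 22.8). The layer 5 list was high in both bands, at 620 CPM between 400 and 500 µm and 596 CPM between 500 and 600 µm. At 3 days Trbc2 had no such higher value.

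The marker lists place these bands. The layer 6 list (Foxp2, Syt6, Rprm and Tle4) was highest next to the white matter at 430 CPM at 3 days and 456 CPM at 28 days. The layer 5 list was highest between 400 and 500 µm, at 492 and 620 CPM. The layer 2/3 list was highest between 900 and 1000 µm at 3 days (1627 CPM) and between 800 and 900 µm at 28 days. Rbfox3, which encodes the nuclear protein NeuN of most neurons, had 308 CPM next to the white matter and 403 CPM in the outermost band at 28 days, so the drop in Trbc2 was not shared by a general neuronal gene. Ighm, the constant region gene of the IgM heavy chain, fell from 585 to 36.3 CPM at 3 days and from 681 to 20.7 CPM at 28 days over the same depth.

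**Figure D3:**
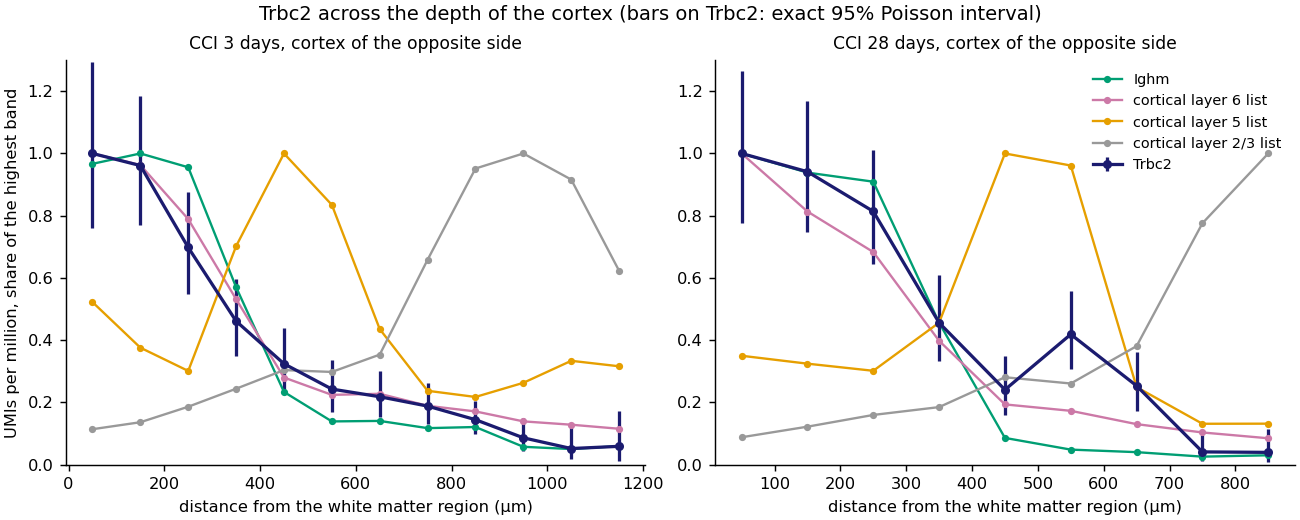
Level across the cortex of the opposite side, in 100 µm bands from the white matter region, each gene or list divided by its highest band (y axis), at 3 days (left) and 28 days (right). Bars on Trbc2 are exact 95% Poisson intervals. Trbc2 is highest next to the white matter, at 68.1 CPM at 3 days and 65.1 CPM at 28 days, as is the layer 6 list. At 28 days Trbc2 has a higher value between 500 and 600 µm, with an interval that overlaps that of the band before. The layer 6 list and Ighm have no higher value there, and the layer 5 and layer 2/3 lists peak further out.

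Along the cortex, from the midline outward, the Krt80 region of the opposite side was cut in 3 parts with like numbers of bins. At 3 days Trbc2 had 67.6 CPM (55.7 to 81.4) in the medial part, 64.7 CPM (53.4 to 77.6) in the middle and 38.9 CPM (31.3 to 47.7) in the lateral part. At 28 days the parts had 35.9 CPM (28.7 to 44.4), 43.8 CPM (36.1 to 52.6) and 45.1 CPM (37.7 to 53.4), with overlapping intervals. Nr4a2, a nuclear receptor gene of the claustrum and deepest cortex, ran the other way at 3 days, from 39.3 CPM in the medial to 717 CPM in the lateral part, where Trbc2 was lowest. Ighm had 655, 662 and 509 CPM in the same parts. At 28 days Nr4a2 (23.0, 31.8 and 39.7 CPM) and Ighm (276, 370 and 509 CPM) were both highest in the lateral part. Trbc2 had no clear order in that section, since its intervals overlapped. The parts were not at matched positions. The lateral part lay 2912 to 3680 µm from the side border at 3 days and 2032 to 2864 µm from it at 28 days. No part of the 28 days section thus lay as far out as the lateral part at 3 days.

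To find which genes share its bins, UMIs were summed over all bins with a Trbc2 UMI and over all bins without, and genes with at least 30 UMIs in the former were compared. That minimum favours genes that are high in these bins. Of the genes compared, 1.13% were at least 2-fold higher at 3 days (74 of 6555) and 1.1% at 28 days (65 of 5936). The sections shared 46 of these genes, 62.2% of the 3 days list and 70.8% of the 28 days list, and 7 of the 10 highest genes were the same in both.

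The highest gene in both sections was Myl4, a myosin light chain gene, with a log2 ratio of 2.47 (2.05 to 2.83) at 3 days and 2.65 (2.29 to 2.98) at 28 days. It was followed by the collagen gene Col5a1 with 2.38 (1.96 to 2.75) and 2.56 (2.10 to 2.96). Ighm followed in each. It had 302 UMIs in Trbc2 bins at 3 days, 359 CPM against 78.6 CPM elsewhere (2.19, 2.02 to 2.36), and 300 UMIs at 28 days, 411 against 82.2 CPM (2.32, 2.15 to 2.49). Also among the highest in both were Vxn, Hs3st2, which encodes a heparan sulfate sulfotransferase, Arhgap25 and Fezf2, a transcription factor gene of deep-layer projection neurons. Nr4a2 (1.88), Rxfp1 (1.88) and Garnl3 (1.72) were among the 10 highest at 3 days, and Ipcef1 (1.92), Rprm (1.77) and Rai14 (1.65) at 28 days.

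Among neuronal lists, the glutamatergic genes of the cortex were high and those of the thalamus were not. In both sections 4 of 6 glutamatergic genes were at least 2-fold higher in Trbc2 bins, among them Slc17a7, the vesicular glutamate transporter of cortex, and the cortical transcription factor genes Neurod6 and Neurod2. Slc17a7 had a log2 ratio of 1.02 (0.93 to 1.10) at 3 days and Neurod6 of 1.18 (0.91 to 1.43). Slc17a6, the glutamate transporter of thalamus and hypothalamus, was lower, at -0.79 (-1.19 to -0.43) and -1.31 (-1.89 to -0.84). Gad1, which encodes an enzyme that makes GABA, stood at -0.64 (-0.97 to -0.34) in the 3 days section and at -0.29 (-0.61 to 0.00) in the other. The GABAergic list was mixed at 28 days. Of its 5 measured genes at 3 days 4 had intervals below 0 (median -0.64), while of the 4 measured at 28 days (median -0.08) Gad2 was lower, at -1.14 (-1.53 to -0.80), and Sst, a peptide of cortical interneurons, was higher, at 0.46 (0.21 to 0.68).

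All 4 layer 6 genes had intervals above 0 in both sections, as 16.2% of all genes compared did at 3 days and 17.7% at 28 days, with a median log2 ratio of 1.35 at 3 days, where 4 of 4 were at least 2-fold higher, and 0.85 at 28 days, where Rprm alone was. The 6 pan-neuronal genes had medians of 0.52 and 0.64, and none was 2-fold higher. The glial lists were lower in this comparison with all other bins. All 5 astrocyte genes and all 5 oligodendrocyte genes had intervals below 0 in both sections, as 11.6% and 11.1% of all genes did, with medians of -0.84 and -0.72 for astrocytes and -0.97 and -0.72 for oligodendrocytes.

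Counted by bins, 632 of 658 Trbc2 bins (96.0%, 94.3 to 97.4) held a pan-neuronal UMI at 3 days against 76.0% of the other bins. At 28 days it was 526 of 547 (96.2%, 94.2 to 97.6) against 70.4%. After thinning the shares were 80.6% (154 of 191, 74.3 to 86.0) against 64.2%, and 87.1% (135 of 155, 80.8 to 91.9) against 64.5%. Thinning also left fewer Trbc2 bins, and how much of the gap was depth was not tested. On the injured side 108 of 118 Trbc2 bins (91.5%, 85.0 to 95.9) held such a UMI at 3 days against 68.7% of the other bins of that side, and 124 of 135 (91.9%, 85.9 to 95.9) against 65.6% at 28 days. After thinning, 17 of 27 (63.0%, 42.4 to 80.6) against 53.8% remained at 3 days, a gap within counting error, and 34 of 41 (82.9%, 67.9 to 92.8) against 58.9% at 28 days.

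The genes in Trbc2 bins of the injured side could be compared for fewer genes. Against the other bins of that side, Slc17a7 was at a log2 ratio of 2.25 (2.04 to 2.45) in the 3 days section and 1.03 (0.82 to 1.22) in the 28 days section. Ighm had 2.14 (1.72 to 2.52) and 1.75 (1.20 to 2.22), and Nr4a2 had 1.92 (1.40 to 2.37) at 28 days. Lamp5, a gene of the layer 2/3 list, was higher still at 3 days, at 2.48 (1.94 to 2.93), while no layer 6 gene reached 30 UMIs in these bins in either section. Lyz2, a lysozyme gene of phagocytes, was also higher in Trbc2 bins of the injured side at 28 days, at 0.83 (0.45 to 1.17), whereas the other 5 phagocyte genes, each with fewer than 30 UMIs in these bins, had intervals that spanned 0.

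These contrasts set bins of the deep cortex against the whole section. Against the other bins of the same 64 µm tiles, a reference added after the data were seen, 4.27% of genes (280 of 6555) had intervals above 0 at 3 days and 4.83% (287 of 5936) at 28 days, and 2 and 4 genes were at least 2-fold higher. All 4 layer 6 genes lay above 0 at 3 days and 3 of 4 at 28 days, the exception being Tle4 (0.32, -0.01 to 0.62). Rprm had 0.66 (0.20 to 1.07) and 0.76 (0.28 to 1.19), and Foxp2 had 0.58 (0.12 to 0.99) and 0.55 (0.02 to 1.02). Ighm had 0.35 (0.17 to 0.52) and 0.49 (0.30 to 0.66). The glutamatergic list was close to 0 in this comparison, with medians of 0.01 and 0.09, although Slc17a7 lay above 0 at 0.16 (0.07 to 0.25) and 0.23 (0.14 to 0.32). Most of the difference in those genes between Trbc2 bins and the section thus lay between tiles rather than within them. The pan-neuronal medians were 0.10 and 0.11. The glial lists were also closer to 0 than against all other bins. The astrocyte medians were -0.20 and -0.33, with 3 of 5 intervals below 0 in each section. The oligodendrocyte medians were -0.23 and -0.03, with 3 of 5 and 1 of 5 below 0.

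**Figure D4:**
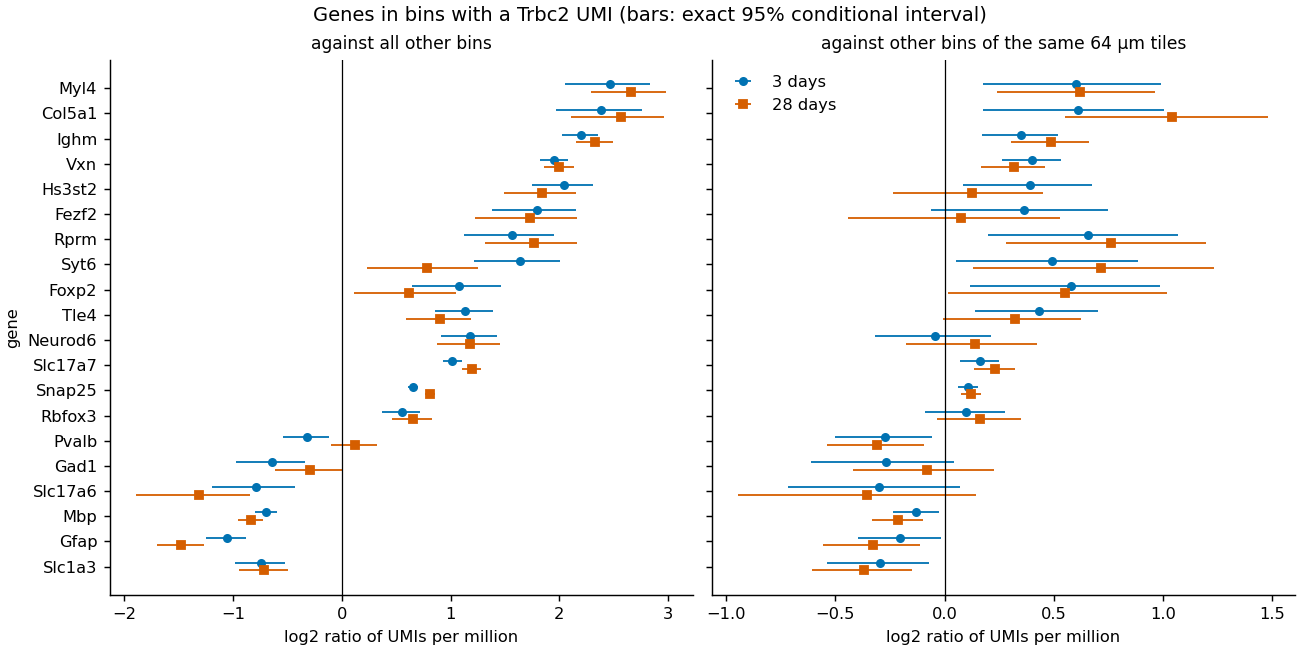
Log2 ratio of CPM in bins with a Trbc2 UMI against all other bins (left) and against other bins of the same 64 µm tiles (right) for genes of the neuronal, glial and leading groups, at 3 days (circles) and 28 days (squares). Bars are exact conditional 95% intervals. In the left panel Myl4, at 2.47 and 2.65, and the layer 6 genes lie to the right of 0. The glial genes Mbp, Gfap and Slc1a3 lie to the left of 0 in that panel.

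CD3 UMIs were rare in all bins, with or without Trbc2. At 3 days 0 of 658 Trbc2 bins held a Cd3e, Cd3d or Cd3g UMI, which allows a share of up to 0.456%, against 60 of 118959 other bins (0.0504%, 0.0385 to 0.0649). At 28 days it was 3 of 547 (0.548%, 0.113 to 1.59) against 73 of 102769 (0.0710%, 0.0557 to 0.0893), so that the share was higher in Trbc2 bins of that section, on 3 bins. At 3 days the limit allowed by 0 bins lies above the share of the other bins, so a lower share in Trbc2 bins was not detectable at this depth. After thinning to 300 UMIs it was 0 of 191, which allows up to 1.57%, and 0 of 155, which allows up to 1.94%. The low numbers bound what can be said of a bin, because even the CD3 genes rarely met each other. At 3 days 1 of 17 Cd3e bins, 1 of 16 Cd3d bins and 0 of 28 Cd3g bins held another CD3 gene, and at 28 days it was 0 of 23, 1 of 23 and 1 of 31.

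All 3 shared bins of the 28 days section were on the injured side and in the lesion zone, in the region led by Mmp3, Saa3 and Lcn2. They held 1 Trbc2 UMI with 2 of Cd3g, 1 with 2 of Cd3e, and 3 with 1 of Cd3d. On that side they were 3 of 135 Trbc2 bins (2.22%, 0.461 to 6.36) against 54 of 49343 other bins of that side (0.109%, 0.0822 to 0.143). On the opposite side 0 of 412 Trbc2 bins held a CD3 UMI, which allows up to 0.728%. Counted from the CD3 side, these same bins were 3 of the 57 CD3 bins of the injured side. A CD3 UMI lay in the 3 by 3 bins around 4 of the 135 Trbc2 bins (2.96%, 0.813 to 7.41). Other bins of that side had 0.922%, so that gap is within counting error.

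Summed over areas, where sparse detection weighs less, the counts of Trbc2, the CD3 genes and Trbc1 were as follows. Both areas are tied to the level of Trbc2, the first as its highest region and the second through the choice of the gene, so their ratios of CD3 to Trbc2 were not compared. The Krt80 region had 318 Trbc2 UMIs, 0 CD3 UMIs and 0 Trbc1 UMIs at 3 days, and 345, 2 and 0 at 28 days. The lesion zone had 12, 10 and 1 at 3 days, and 26, 43 and 21 at 28 days. In the lesion zone at 28 days, 6 of the 26 Trbc2 UMIs lay within the 3 by 3 bins around a CD3 UMI (18.0 CPM) and 20 lay elsewhere (2.93 CPM). At 3 days 0 of the 12 lay within such bins. The 6 UMIs include those of the 3 shared bins above (1, 1 and 3). The 18.0 CPM thus mostly restates those bins and is not a separate observation.

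Trbc1, the gene of the other constant region, was sparse everywhere. It had 13 UMIs in all at 3 days and 27 at 28 days, of which 23 were on the injured side (0.620 CPM) and 4 on the opposite side (0.0885 CPM). In the mirror zone Trbc1 had 2 UMIs at 3 days and 1 at 28 days. No bin held both genes, with Trbc2 in 0 of 13 Trbc1 bins at 3 days (0 to 24.7%) and 0 of 27 at 28 days (0 to 12.8%). With so few bins of each gene, this absence says little.

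**Figure D5:**
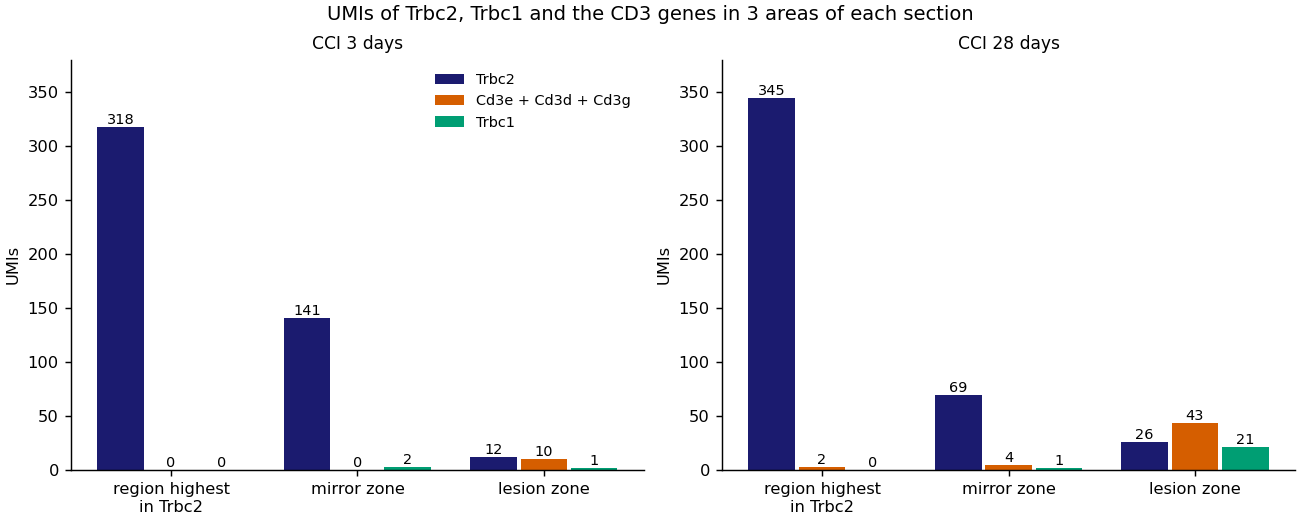
UMIs of Trbc2, of Cd3e, Cd3d and Cd3g summed, and of Trbc1 in the region highest in Trbc2, the mirror zone and the lesion zone at 3 days (left) and 28 days (right). Bars start at 0 and carry their counts. The region highest in Trbc2 has 318 and 345 Trbc2 UMIs with 0 and 2 CD3 UMIs, and the lesion zone at 28 days has 43 CD3 and 26 Trbc2 UMIs.

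The other lymphocyte genes were also sparse in Trbc2 bins. None of the 10 genes of the T cell receptor complex and its proximal signalling reached 30 UMIs there, and together they had 7 UMIs at 3 days and 11 at 28 days, 10 of the latter on the injured side. With Cd247 left out, 1.06% (0.429 to 2.18) of the Trbc2 bins at 3 days held a UMI of these genes against 1.40% of the other bins, and 1.46% (0.633 to 2.86) against 1.32% at 28 days. On the injured side at 28 days it was 7 of 135 Trbc2 bins (5.19%, 2.11 to 10.4) against 1.51% of the other bins, a difference beyond counting error that includes the 3 bins shared with CD3. On the opposite side it was 1 of 412 (0.243%, 0.00614 to 1.34) against 1.16%. After thinning, 0 of 41 Trbc2 bins of the injured side held one, which allows up to 7.32%. Trac, the alpha chain constant gene, had 1 UMI in Trbc2 bins of each section, out of 334 and 263 in all. The genes of receptor assembly in the thymus, Rag1, Rag2 and Dntt, had 2 and 0 UMIs, and the 4 B cell genes 1 and 0. The effector gene Gzmb shared 3 of its 14 bins with Trbc2 at 3 days, a larger share than the 658 Trbc2 bins among all 119617, and 0 of 8 at 28 days. Cd6, a T cell surface gene, had 3 and 4 UMIs in Trbc2 bins.

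The genes whose pattern was most like that of Trbc2 were sought over wide tiles of 16 by 16 bins, with 488 tiles at 3 days, 426 at 28 days and 12837 genes. The correlations are descriptions, since tiles share libraries, depth and neighbours. Ighm was first, with r of 0.71 at 3 days and 0.76 at 28 days, and was followed by Vxn (0.70 and 0.77) and Tmem178 (0.75 and 0.69). With ranks in place of levels (Spearman), Ighm stood at rank 688 and 2 of the 10 genes remained. Ephb6, an ephrin receptor gene, Myl4, Tbr1, a transcription factor gene of layer 6 neurons, Diras2, Ipcef1, Ptk2, which encodes focal adhesion kinase, and Hs3st2 completed the 10, with mean r between 0.64 and 0.68. Fezf2 ranked 24 and Tle4 28, while Rbfox3 ranked 239 (mean r 0.32). Of the T cell genes with enough UMIs, Trac (-0.12), Lck (-0.11) and Zap70 (-0.09) had mean r below 0.

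The like genes were not all lower on the injured side to the same degree. At 3 days the log2 ratio of injured against opposite side was -1.57 for Vxn, -1.45 for Tbr1, -1.63 for Myl4 and -0.15 for Ighm, against -1.08 for Trbc2. At 28 days it was -0.41, -0.46, -1.02 and -0.91 in the same order, against -1.32 for Trbc2. Over all 10 like genes the ratios ran from -1.63 to -0.15 at 3 days, with Trbc2 inside that range, and from -1.02 to -0.19 at 28 days, with Trbc2 below it. The layer 6 gene Foxp2 had 0.09 and 0.25. It ranked 2273 of 12837 genes in likeness to Trbc2 (r of 0.11 and 0.04), so over whole sides it does not stand for the tissue high in Trbc2.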

How the data were processed

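Visium HD sections of mouse brain, 1 taken 3 days and 1 taken 28 days after CCI, were analysed. The authors processed the reads with Space Ranger 4.0.1 (per the file headers) against mm10 (per the labels) and deposited raw UMI counts per gene and 16 µm bin, with no normalization. Probe positions are not given in the sources used here. Trbc2 and the gene lists were chosen with earlier results of these data known.

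Bins with at least 100 UMIs were kept, and 1.93% and 2.15% of bins were dropped. The injured side was taken as array columns below 130 at 3 days and below 240 at 28 days, a split that the sample labels do not give. CPM values were sums of counts over an area divided by all UMIs of that area. The lesion zone was made of tiles (4 by 4 bins) whose smoothed level of 6 phagocyte genes passed the 99th percentile of the opposite side, in patches of at least 25 tiles, and the mirror zone was its reflection across the border. At 28 days the opposite side was narrower than the injured side, so the lesion zone (13559 bins) was only partly mirrored (12447 bins). Regions were Leiden clusters of tiles (resolution 1, 2000 variable genes, 30 components, 15 neighbours) computed without Trbc2 and without the T cell genes. Regions are named by up to 5 leading genes.

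Intervals are exact Poisson for levels, Clopper-Pearson for shares and conditional binomial for ratios, at 95%. The limit allowed by a count of 0 is 3 counts. UMIs correct for PCR copies, and intervals cover counting error only. Ratios were taken for genes with at least 30 UMIs in Trbc2 bins or 20 in the areas compared, with a pseudocount of 0.5. Likeness was the Pearson correlation of CPM over tiles of 16 by 16 bins with at least 64 bins, for genes with at least 200 UMIs. Named genes were Trbc2, the members of the marker lists, the 10 genes highest in Trbc2 bins in each section, the 10 most like Trbc2 by mean correlation and the leading genes of regions. Sequences were read from the mm10 genome at GENCODE exon positions.

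Alternatives were other minimums of UMIs per bin, bins thinned to 300 UMIs, UMIs per bin or per pan-neuronal UMI as the scale, a border moved by 10 bins, another zone threshold or reference, Leiden resolutions of 0.5 and 2, fixed lists as regions, other neighbourhoods, and other tiles, sides and ranks for likeness. The same-tile reference, the distance from white matter, the side ratios of like genes, CD3 bins as the start and the antigen receptor genes by region were added after the data were seen. The ratio, interval and correlation steps were checked on simulated data. Python 3.11.15, numpy 2.4.6, scipy 1.17.1, pandas 2.3.3, scanpy 1.11.5, leidenalg 0.10.2 and matplotlib 3.10.9 were used. Sections of sham-operated mice were not analysed here, and single values of some listed genes are not reported here.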

Additional observations from a re-analysis of the deposited data

Results flagged for a closer look

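Trbc2 was set against genes with a like pattern and against neuronal genes, and in 5 of 12 such ratios the sections had opposite signs. Among the other 7, the ratio of the sides per UMI of Ighm was -0.93 at 3 days and -0.41 at 28 days, and per UMI of the layer 6 list -1.03 and -1.18. The layer 6 list itself had side ratios of only -0.05 and -0.15, although the Krt80 region lay mostly on the opposite side. Its ratios thus do not compare layer 6 tissue alone. The differences between sections were not tested, since each time point is 1 section. The 12 ratios are not separate observations, because those of 1 comparison share the same Trbc2 counts. The ratios of the zones also use values that led to the choice of the gene. Some of the 5 opposite signs rest on a 28 days interval that spans 0. Per UMI of Tbr1, a transcription factor gene of layer 6 neurons, the log2 ratio between injured and opposite side reached 0.37 (0.06 to 0.67) at 3 days, compared with -0.87 (-1.16 to -0.58) at 28 days. Per UMI of Vxn the values were 0.49 (0.18 to 0.78) and then -0.91 (-1.20 to -0.63), and per UMI of Myl4 0.55 (0.18 to 0.91) and -0.30 (-0.63 to 0.02). All 3 intervals, which hold the counting error of both genes, lay above 0 at 3 days. At 28 days those of Tbr1 and Vxn lay below 0 and that of Myl4 reached 0. Per 1000 Tbr1 UMIs, the 3 days section had 80.4 Trbc2 UMIs on its injured and 62.3 on its opposite side. The 28 days section had 60.3 and 110. The sections were captured with different widths of each side, and the part of this in the ratios was not tested.

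Between the lesion and the mirror zone, Trbc2 per UMI of Myl4 differed by a log2 ratio of -1.68 (-2.79 to -0.78) at 3 days and 0.31 (-0.59 to 1.19) at 28 days. Per pan-neuronal UMI it was -0.99 (-2.03 to -0.19) and 0.20 (-0.53 to 0.85). The intervals at 28 days spanned 0 in both. The zone values of Trbc2 led to the choice of the gene, so these ratios are a description only.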

How the results depend on the processing

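No paired analysis was possible because each time point has 1 section, and for the same reason no replicate could be left out. Of 55 recomputed main values, 43 stayed within counting error or, for counts of genes, close to the reported count. The side ratio of Trbc2 kept its sign under the other UMI minimums, scales per UMI, per bin and per pan-neuronal UMI and borders, but not per UMI of Tbr1, Vxn or Myl4 at 3 days (0.37, 0.49 and 0.55). It was smaller per 1000 pan-neuronal UMIs, at -0.54 at 3 days and -0.86 at 28 days. The zone ratio at 3 days was -1.90 with the lower zone threshold and -1.49 against the whole opposite side, and at 28 days it was -0.72 (-1.49 to 0.01) with the border moved toward the opposite side. The region highest in Trbc2 against the rest had 3.51 at 3 days and 3.19 at 28 days with tiles assigned to fixed lists, and 3.41 at 28 days at resolution 0.5. With bins thinned to 300 UMIs, 13 genes of 223 at 3 days and 7 of 142 at 28 days were at least 2-fold higher in Trbc2 bins. Against the same tiles it was 2 and 4. Ranks in place of levels (Spearman) left 2 of the 10 like genes, with Ighm at rank 688, whereas smaller tiles or the opposite side alone left 8. Of the recomputed values of single genes and bands, 190 stayed close, 112 moved with their sign kept and 7 changed sign. Against the same tiles these were Camk2a (-0.060), Neurod6 (-0.042) and Slc32a1 (0.11) at 3 days and Camk2a (-0.040), Gad2 (0.0025) and Mal (0.13) at 28 days, and in thinned bins Mal (0.44) at 28 days. The causes were not tested. All intervals of these 7 spanned 0. With at most 4 Trbc2 UMIs in a bin and 12 in the lesion zone at 3 days, counting error limits every share and ratio.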

Other observations

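Some other T cell genes, none of which was used to form the regions, were also highest away from the lesion, and are named here after their values were seen. Zap70, which encodes a kinase of T cell receptor signalling, was highest in the Gbx2 region of the midline thalamus markers, at 30.9 and 33.4 CPM. Cd4, the coreceptor of helper T cells, was highest in the Adora2a region of the striatal markers, at 18.3 and 39.4 CPM. Cd6 was highest in upper cortex, in the Vip and Ntn5 region at 3 days (4.97 CPM) and the Ovol2 region at 28 days (4.12 CPM). None of these regions was mostly on the injured side. Trac was highest in the Avp and Oxt region of the hypothalamic markers at 3 days (10.9 CPM, 20 UMIs). At 28 days it was highest in the Cst7 region (10.7 CPM, 29 UMIs), of which 97.5% lay in the lesion zone, followed by the Gbx2 region (9.33 CPM, 53 UMIs). Trbc1 was highest at 28 days in the Mmp3 region (3.47 CPM). The second highest region of Cd4 at 3 days was the Tgm1 and Msr1 region of the lesion (11.2 CPM), which fitted the striatal list best.

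The variable segments of the beta locus did not share the pattern of the constant gene. The 22 Trbv genes summed to 314 UMIs at 3 days and 267 at 28 days. In the Krt80 region they had 2.76 CPM at 3 days, where the median over regions was 2.76 CPM, and 1.50 CPM at 28 days, where the median was 2.69 CPM.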
